A study of Mus musculus with 16 samples.

Results

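The genes of the mitochondrial respiratory chain were followed in mouse CD8+ T cells from the naive state to day 5 of stimulation in culture. They were chosen by symbol alone from a matrix of gene counts. The nuclear part takes the symbols of the subunits of complexes I to V, of cytochrome c and of cytochrome c1. The mitochondrial part takes the 13 mRNAs encoded by mitochondrial DNA. The pattern matched 101 of 34573 symbols, 1 pseudogene name was dropped, and 100 members remained, 87 nuclear and 13 mitochondrial. By the complex in the symbol, the nuclear members numbered 37 for complex I, 4 for complex II, 9 for complex III, 1 for cytochrome c, 18 for complex IV and 18 for complex V. A few members carry a name that differs from their role. Ndufa4 is now counted as a subunit of complex IV, and Atp5sl (now Dmac2) is an assembly factor of complex I. Cox7a2l is described as helping to join complexes into supercomplexes. Whether its product does so in cells of the strain used here was not tested.

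Cells came from spleens of C57BL/6 mice, whose age and number the labels do not give. Naive CD8+ T cells were isolated and stimulated with antibodies to CD3e and CD28 at 10 µg/ml each, and IL-2 at 300 U/ml was added after a night in culture. The 4 states were Tn (day 0, sorted CD8+, CD44-, CD62L+), Teff1 (day 2, CD8+, PD-1+, TIM-3-), Teff2 (day 5, CD8+, PD-1+, TIM-3-) and Tex (day 5, CD8+, PD-1+, TIM-3+), each with 3 RNA libraries made from the same number of sorted cells. The activated states therefore share the antibodies and IL-2 and differ in day and in surface TIM-3, the product of Havcr2, and "Tex" is a name for a sorted gate after 5 days in vitro. Nothing in the labels says that the 3 libraries of a state came from separate animals or cultures, so the p-values measure the spread between these libraries, which may be technical.

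The respiratory chain passes electrons from NADH (at complex I) and succinate (at complex II) through coenzyme Q, complex III and cytochrome c to oxygen at complex IV. The proton gradient that complexes I, III and IV build drives ATP synthesis at complex V. Complex II is encoded in the nucleus alone, while the other complexes combine nuclear subunits with a few hydrophobic core subunits made from mitochondrial DNA, so that both genomes must supply parts. T cells that leave quiescence are known to enlarge their mitochondria and to raise respiration along with glycolysis.

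Libraries held 14668884 to 21162206 counts, and the correlation of log2 CPM between libraries of a state was 0.955 to 0.989, with 0 identical pairs. CPM is the count scaled to the library total, here with totals adjusted by TMM factors. Summed B cell markers reached 576 to 1913 CPM in Tn against 90.6 to 290 CPM in the activated libraries, all 6 markers having a count in Tn. Summed MHC class II markers were 1422, 119 and 2230 CPM in Tn replicates 1, 2 and 3, and 29.0 to 127 CPM after activation. Macrophage and erythroid marker sums were also higher in every Tn library, at 72.5 to 284 and 78.7 to 177 CPM, than in any activated library (at most 12.0 and 7.62 CPM). Platelet and neutrophil sums, at 11.7 to 52.0 and 1.23 to 6.09 CPM in Tn, were at most 6.81 and 0.222 CPM after activation. The marker sum of CD8 T cells was 4087 to 5936 CPM in Tn and 3063 to 3882 CPM after activation. These markers therefore move with the comparison of Tn with activated cells. NK cell marker sums overlapped, at 264 to 514 CPM in Tn and 260 to 749 CPM after activation. Sums for B cells, MHC class II cells and macrophages were highest in Tn replicates 1 and 3, while the erythroid sum was 177, 157 and 78.7 CPM in replicates 1, 2 and 3. The part of these markers in the results was not tested beyond fits without Tn replicates 1 and 3, which keep a library with erythroid markers. The list of CD4 and regulatory T cell markers, which holds genes of activated T cells such as Il2ra and Ctla4, summed to 18.7 to 158 CPM in Tn and 996 to 1827 CPM after activation. Havcr2 was 34.5, 10.8 and 38.4 CPM in Tex and at most 0.612 CPM in Teff2. In Tn replicates 1, 2 and 3 it was 2.45, 0.408 and 2.20 CPM. Cd44, absent from the surface by the Tn gate, had 36.3, 6.33 and 32.3 CPM there and 73.5 to 469 CPM in activated libraries. In bulk RNA, fewer cells of a type and less RNA per cell cannot be told apart.

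As a share of library counts, the summed level of the nuclear members rose with activation and that of the mitochondrial mRNAs did not. Amounts per cell were not measured. The 87 nuclear members together reached 6033, 6477 and 6129 CPM in Tn replicates 1, 2 and 3. They reached 8787, 10612 and 13976 CPM in Teff1, 8828, 12457 and 11609 CPM in Teff2, and 9729, 13394 and 12545 CPM in Tex. Every activated library lay above every Tn library, and replicate 1 was the lowest of each activated state. The 3 Tn libraries lay close together in this sum. All 3 held B cell, macrophage, erythroid and platelet markers, and the part of other cell types in this sum was not tested. The 13 mitochondrial mRNAs together reached 19853, 21553 and 14741 CPM in Tn, 12166, 25222 and 17355 CPM in Teff1, 15425, 16300 and 14198 CPM in Teff2, and 15034, 16028 and 12779 CPM in Tex. These sums overlapped between Tn and every activated state, and Teff1 replicates 1 and 2 were the lowest and highest of all 12 libraries.

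The balance between the genomes shifted accordingly. The mitochondrial sum was 3.29, 3.33 and 2.41 times the nuclear sum in the 3 Tn libraries, 1.38, 2.38 and 1.24 times in Teff1, 1.75, 1.31 and 1.22 times in Teff2, and 1.55, 1.20 and 1.02 times in Tex. All activated libraries lay below all Tn libraries, but Teff1 replicate 2 came close to Tn replicate 3. The means were 3.01 ± 0.522 (SD, n = 3), 1.67 ± 0.618, 1.43 ± 0.281 and 1.25 ± 0.268. mt-Co1, which encodes the catalytic subunit 1 of complex IV, supplied 46.0% of the mitochondrial counts in Tn. Without it the means of the ratio were 1.62, 0.860, 0.707 and 0.628, so the order of the states was the same. How reads that also match copies of mitochondrial DNA in the nuclear genome were counted is not given in the sources used here. The share of mt-Co1 and the size of the ratios are therefore uncertain, and this was not tested.

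**Figure D1:**
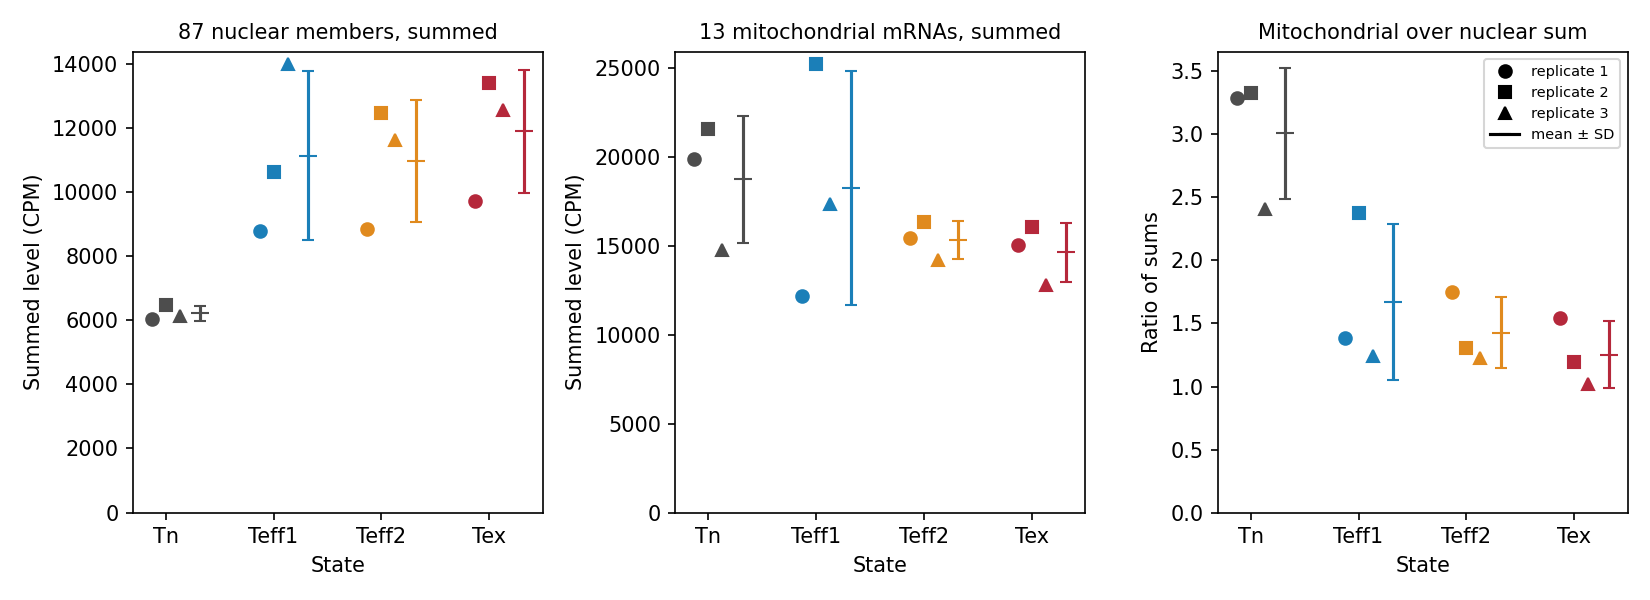
Summed level of the 87 nuclear members (left, CPM), of the 13 mitochondrial mRNAs (middle, CPM) and the ratio of the sums (right), for each library by state, with the mean and SD of 3 libraries beside the points. Nuclear sums are 6033 to 6477 CPM in Tn and 8787 to 13976 CPM after activation, while mitochondrial sums overlap between states.

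Between day 0 and day 2, 50 of the 81 nuclear members that passed the filter on low counts rose and 3 fell in Teff1 against Tn (edgeR quasi-likelihood test across all 14332 genes, Benjamini-Hochberg adjusted p under 0.05). Of all genes tested, 48.9% were called in this comparison, 24.5% higher and 24.5% lower. The median log2 fold change was 0.81 over the nuclear members and -0.06 over all genes tested. The CPM of 56 nuclear members did not overlap and were higher in Teff1, against 29.6% of all genes, and 3 did not overlap and were lower, against 31.9%. Without Teff1 replicate 3, the library highest in nuclear members, 33 rose. The share of all genes called in that fit is not given here. With Tn replicates 1 and 3 left out, the median over the nuclear members was 0.73, and fewer of them were called. That fit leaves 1 Tn library that is assumed to vary like the other states, so its calls are not counted here.

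The rise was still there at day 5. In Teff2 against Tn, 57 nuclear members rose and 3 fell, where 48.9% of all genes were called (25.6% higher, 23.3% lower), and the median was 0.85 against 0.00 for all genes. The CPM of 62 did not overlap and were higher, against 29.8% of all genes, and of 3 lower, against 29.6%. In Tex against Tn, 60 rose and 3 fell, where 52.9% of all genes were called (27.3% higher, 25.6% lower), and the median was 0.94 against 0.00. There 69 did not overlap and were higher, against 32% of all genes, and 3 lower, against 31.3%. These 3 comparisons share the Tn libraries, so they are not independent of one another. With Tn replicates 1 and 3 left out, the nuclear medians were 0.83 in Teff2 and 0.90 in Tex, and fewer nuclear members were called.

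**Figure D2:**
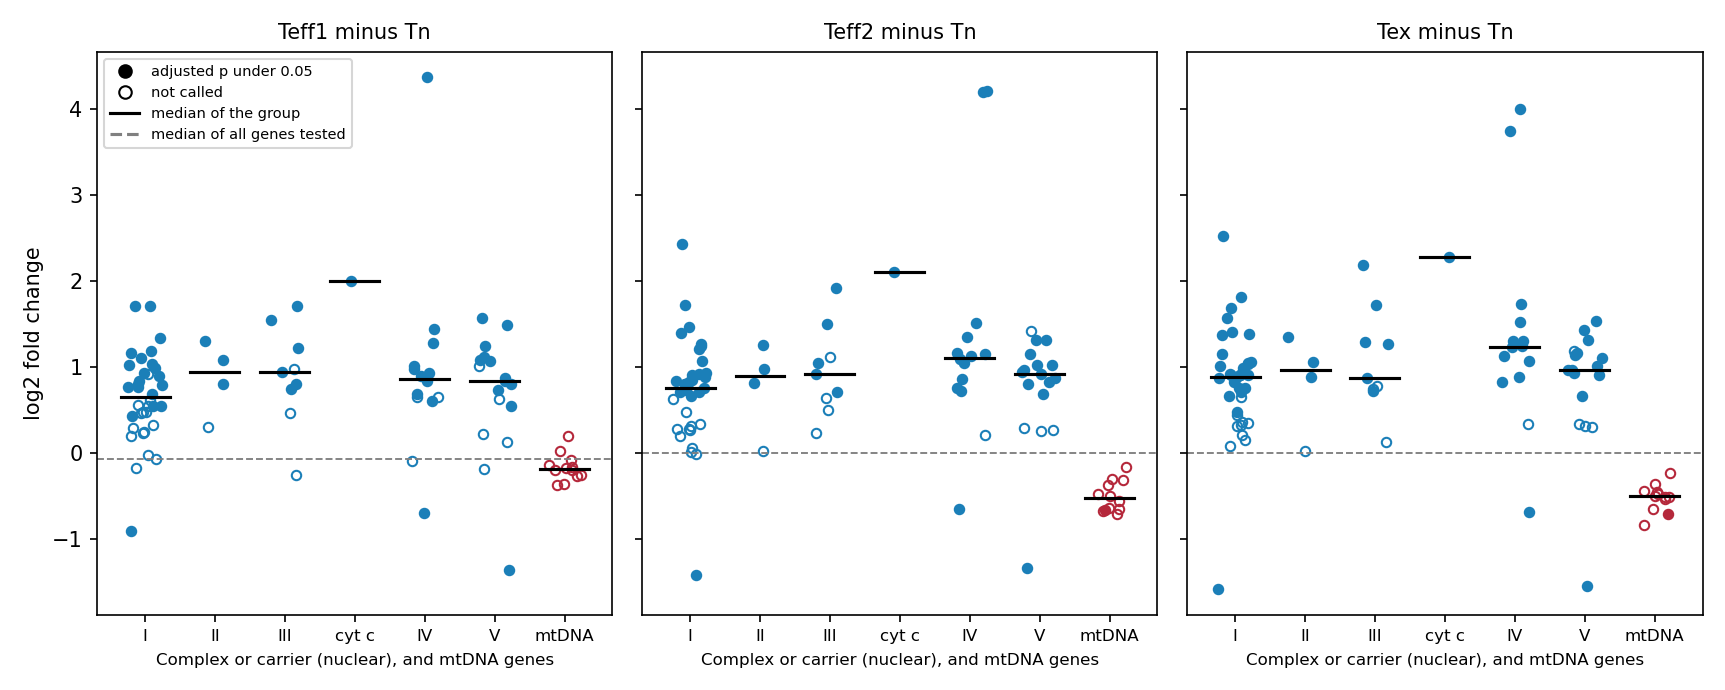
log2 fold change of each tested member against Tn (vertical axis) for Teff1, Teff2 and Tex (panels), with members grouped on the horizontal axis by nuclear complex or carrier and mitochondrial mRNAs (mtDNA) last. Filled points passed an adjusted p under 0.05, black bars are group medians and the dashed line is the median of all genes tested. In the Teff1 panel the complexes have medians of 0.66 to 0.95 and the mitochondrial mRNAs one of -0.18.

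Complex I, the NADH dehydrogenase at which most electrons enter, was split by subunit. By symbol 36 of its nuclear members were tested, Ndufa4 included. Of these 19 rose and 1 fell in Teff1 (median log2 fold change 0.66), 24 rose and 1 fell in Teff2, and 26 rose and 1 fell in Tex. Of all genes, 24.5%, 25.6% and 27.3% were called higher in Teff1, Teff2 and Tex against Tn, and 24.5%, 23.3% and 25.6% lower. The nuclear core subunits of complex I carry the flavin and the iron-sulfur clusters. Among them Ndufv1, which binds NADH, had 58.9, 72.0 and 71.8 CPM in Tn, then 112, 145 and 148 CPM in Teff1 (log2 fold change 0.99, SE 0.21, adjusted p = 0.00269), with no overlap. Ndufv2 (1.02) and Ndufs8 (1.03) rose to a like extent in Teff1. Ndufs1, Ndufs3 and Ndufs7 were not called there, with log2 fold changes of 0.20 to 0.48. The calls in Teff2 did not hold for Ndufs8 without Teff2 replicate 2 (adjusted p = 0.0616) or for Ndufv1 without that library or Tn replicate 1 (0.0508 and 0.0529).

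The largest rises of complex I above 10 CPM were in 2 accessory subunits. Ndufc2, a small membrane subunit, had 13.8, 18.7 and 20.5 CPM in Tn, 36.9, 56.7 and 81.1 CPM in Teff1, 36.7, 70.2 and 68.9 CPM in Teff2, and 42.3, 73.6 and 70.5 CPM in Tex. No activated library overlapped Tn, and the log2 fold changes were 1.72, 1.73 and 1.81 (SE 0.34 each, adjusted p = 0.0016, 0.00153 and 0.000998). Ndufa12, a subunit of the peripheral arm, had 8.81, 8.57 and 10.95 CPM in Tn. It had 14.8, 41.9 and 36.0 CPM in Teff1, 52.8, 75.7 and 24.3 CPM in Teff2, and 48.2, 86.3 and 28.9 CPM in Tex. Its activated libraries were all above Tn, but its order among replicates differed by state, with replicate 1 lowest at day 2 and replicate 3 lowest at day 5. Its log2 fold changes were 1.71, 2.43 and 2.53 (adjusted p = 0.0135, 0.00213 and 0.00149), and the first was not called without Teff1 replicate 2 (adjusted p = 0.0528).

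Ndufb2, an accessory subunit of the membrane arm, was the only member of complex I that fell. It is named here after its values were seen, since it lies under the 10 CPM of the naming rule. Its level was 4.70, 5.65 and 5.75 CPM in Tn, 3.57, 2.61 and 2.42 CPM in Teff1, 2.60, 1.74 and 1.66 CPM in Teff2, and 2.53, 1.56 and 1.30 CPM in Tex. All activated libraries were below Tn, with log2 fold changes of -0.90, -1.42 and -1.58 (adjusted p = 0.047, 0.00579 and 0.00292). The first of these calls was lost without any of Tn replicates 1, 2 or 3 or Teff1 replicates 2 or 3.

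Complex II, succinate dehydrogenase, links the chain to the citric acid cycle. Its 3 smaller subunits rose in all activated states and the flavoprotein did not pass the test. In the same comparisons 24.5% (Teff1), 25.6% (Teff2) and 27.3% (Tex) of all genes were called higher. Sdhd, a membrane anchor, had 45.2, 50.1 and 45.4 CPM in Tn, then 100, 94.6 and 153 CPM in Teff1 (log2 fold change 1.30, SE 0.23, adjusted p = 0.000749). Sdhb, the iron-sulfur subunit, had 63.4, 67.8 and 69.2 CPM in Tn, then 105, 149 and 173 CPM in Teff1 (1.09, adjusted p = 0.00202). Sdhc, the other anchor, rose from 45.5 ± 1.30 to 79.6 ± 12.97 CPM (SD, n = 3; 0.81, adjusted p = 0.00154). None of these 3 overlapped Tn in any activated state. Sdha, which carries the flavin, had 233, 278 and 259 CPM in Tn, then 284, 309 and 359 CPM in Teff1 (log2 fold change 0.31, adjusted p = 0.138). At day 5 its levels overlapped Tn, with means of 262 CPM in both states against 257 CPM in Tn (0.03 in both, adjusted p = 0.888 and 0.9). With Tn replicates 1 and 3 left out, the calls in Teff1 were lost for Sdhb, Sdhc and Sdhd (adjusted p = 0.0708, 0.0525 and 0.0507), at log2 fold changes of 1.04, 0.82 and 1.18.

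Complex III hands electrons from coenzyme Q to cytochrome c. Of its 9 members 6 rose in Teff1, 5 in Teff2 and 6 in Tex, and none fell. The shares of all genes in these comparisons were 24.5%, 25.6% and 27.3% higher and 24.5%, 23.3% and 25.6% lower. Uqcrq, a small subunit, had 56.5, 50.7 and 49.99 CPM in Tn, 143, 169 and 202 CPM in Teff1, 156, 200 and 241 CPM in Teff2, and 207, 237 and 275 CPM in Tex. The levels did not overlap with Tn, and the log2 fold changes were 1.71, 1.92 and 2.19 (SE 0.19, 0.20 and 0.20, adjusted p = 5.35e-05, 2.09e-05 and 8.51e-06). Uqcr10, another small subunit, rose from 39.7 ± 5.00 to 117 ± 34.0 CPM in Teff1 and stood at 132 ± 9.58 CPM in Tex (1.55 and 1.73, adjusted p = 0.000224 and 9.07e-05). Cyc1, the cytochrome c1 heme protein, had 76.5, 93.2 and 97.8 CPM in Tn, then 119, 166 and 231 CPM in Teff1 (0.95, adjusted p = 0.0228). Its Teff2 levels of 90.6, 174 and 152 CPM overlapped Tn (adjusted p = 0.101). Cyc1 lost its Teff1 call without any of Tn replicates 1 and 2 or Teff1 replicate 3 (adjusted p = 0.0503 to 0.108), and its Tex call without any of 5 single libraries (Tn replicates 1, 2 and 3 and Tex replicates 2 and 3, 0.0551 to 0.118). Uqcrh, the hinge protein, was not called in any state and lay at 109, 91.3, 128 and 119 CPM on average.

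Cytochrome c, the soluble carrier between complexes III and IV and a trigger of apoptosis when released, had one of the largest rises. Cycs, the somatic gene, had 50.5, 39.3 and 39.8 CPM in Tn, 136, 139 and 245 CPM in Teff1, 157, 212 and 190 CPM in Teff2, and 184, 234 and 215 CPM in Tex. The lowest activated library, at 136 CPM, lay above the highest Tn library, at 50.5 CPM. The log2 fold changes were 2.00, 2.11 and 2.29 (SE 0.24 each, adjusted p = 7.06e-05, 4.47e-05 and 2.26e-05). Cycs has processed pseudogenes in the mouse genome, and how reads shared with such copies were counted is not given in the sources used here.

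Complex IV, cytochrome c oxidase, had 14 tested nuclear members by symbol. Of these 10 rose and 1 fell in Teff1 and 12 rose and 1 fell in both day 5 states. The shares of all genes in Teff1, Teff2 and Tex were 24.5%, 25.6% and 27.3% higher and 24.5%, 23.3% and 25.6% lower. Cox5a had 20.2, 27.1 and 24.4 CPM in Tn, then 45.6, 65.7 and 84.6 CPM in Teff1 (log2 fold change 1.45, SE 0.30, adjusted p = 0.0021). Cox7a2, the common isoform of a small membrane subunit, rose from 32.5 ± 0.693 CPM to 78.9 ± 26.0 CPM in Teff1 and 92.6 ± 23.8 CPM in Teff2 (1.28 and 1.51, adjusted p = 0.00139 and 0.000508). The other common isoforms rose as well in Teff1, with log2 fold changes of 0.60 for Cox4i1, 0.70 for Cox6a1, 0.84 for Cox7b, 0.90 for Cox6b1 and 0.93 for Cox8a. Of these Teff1 calls Cox4i1 was lost without Tn replicate 3 or Teff1 replicate 3 (adjusted p = 0.0549 and 0.0582), and Cox6b1 and Cox7b without any of Tn replicates 1 and 2 or Teff1 replicate 3 (0.0555 to 0.120 and 0.0503 to 0.071).

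Several subunits of complex IV have isoforms that other tissues use, such as heart and skeletal muscle (Cox6a2, Cox7a1, Cox8b), lung (Cox4i2) and testis (Cox6b2, Cox7b2, Cox8c). Cox7b2 and Cox8c had 0 counts in all 12 libraries, and Cox4i2, Cox8b and the complex I paralog Ndufa4l2 stayed at or under 0.53 CPM and were not tested. Cox7a1 was tested and lay between 0.408 and 1.83 CPM, with no call. Cox6a2 and Cox6b2 differed from these. Cox6a2 had 10, 0 and 8 counts in Tn replicates 1, 2 and 3, then 405, 78 and 4 in Teff1, 247, 48 and 94 in Teff2, and 190, 62 and 82 in Tex. One Teff1 library overlapped Tn, while the day 5 libraries did not. The fitted log2 fold changes were 4.37, 4.21 and 4.00 (SE 1.31, 1.30 and 1.30, adjusted p = 0.0159, 0.0186 and 0.0215). The first call was lost without Teff1 replicate 1 (log2 fold change 2.47, adjusted p = 0.091), the second without Tn replicate 2 or 3 (0.0567 and 0.0555), and the third without either of those or Tex replicate 1 (0.0538 to 0.063).

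Cox6b2 stayed low at day 2 and was high at day 5. It had 1.92, 0.544 and 1.34 CPM in Tn, 3.38, 1.33 and 1.27 CPM in Teff1, 52.2, 4.58 and 13.5 CPM in Teff2, and 31.0, 7.55 and 13.1 CPM in Tex. The day 5 libraries lay above all day 0 and day 2 libraries, and replicate 1 was highest in both day 5 states. Against Tn the log2 fold changes were 0.65 in Teff1 (adjusted p = 0.554), 4.20 in Teff2 (SE 0.90, adjusted p = 0.00264) and 3.75 in Tex (SE 0.89, adjusted p = 0.00412). Teff2 against Teff1 gave 3.54 with an adjusted p of 0.0927. Its common paralog Cox6b1 remained far more abundant, at 90.7 to 165 CPM in the day 5 libraries.

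Cox7a2l was the 1 member of complex IV that fell. It had 304, 312 and 274 CPM in Tn, 229, 174 and 148 CPM in Teff1, 244, 148 and 178 CPM in Teff2, and 234, 148 and 172 CPM in Tex. All activated libraries were below Tn, and replicate 1, the lowest for most other nuclear members, was the highest here. The log2 fold changes were -0.69, -0.65 and -0.68 (SE 0.23 each, adjusted p = 0.0264, 0.0354 and 0.0259). The calls rested on single libraries. The Teff1 call was lost without any of Tn replicates 1 and 2 or Teff1 replicates 2 and 3 (adjusted p = 0.0597 to 0.101), the Teff2 call without any of the 3 Tn libraries or Teff2 replicates 2 and 3 (0.0555 to 0.120), and the Tex call without any of Tn replicates 1 and 2 or Tex replicates 2 and 3 (0.0575 to 0.101).

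**Figure D3:**
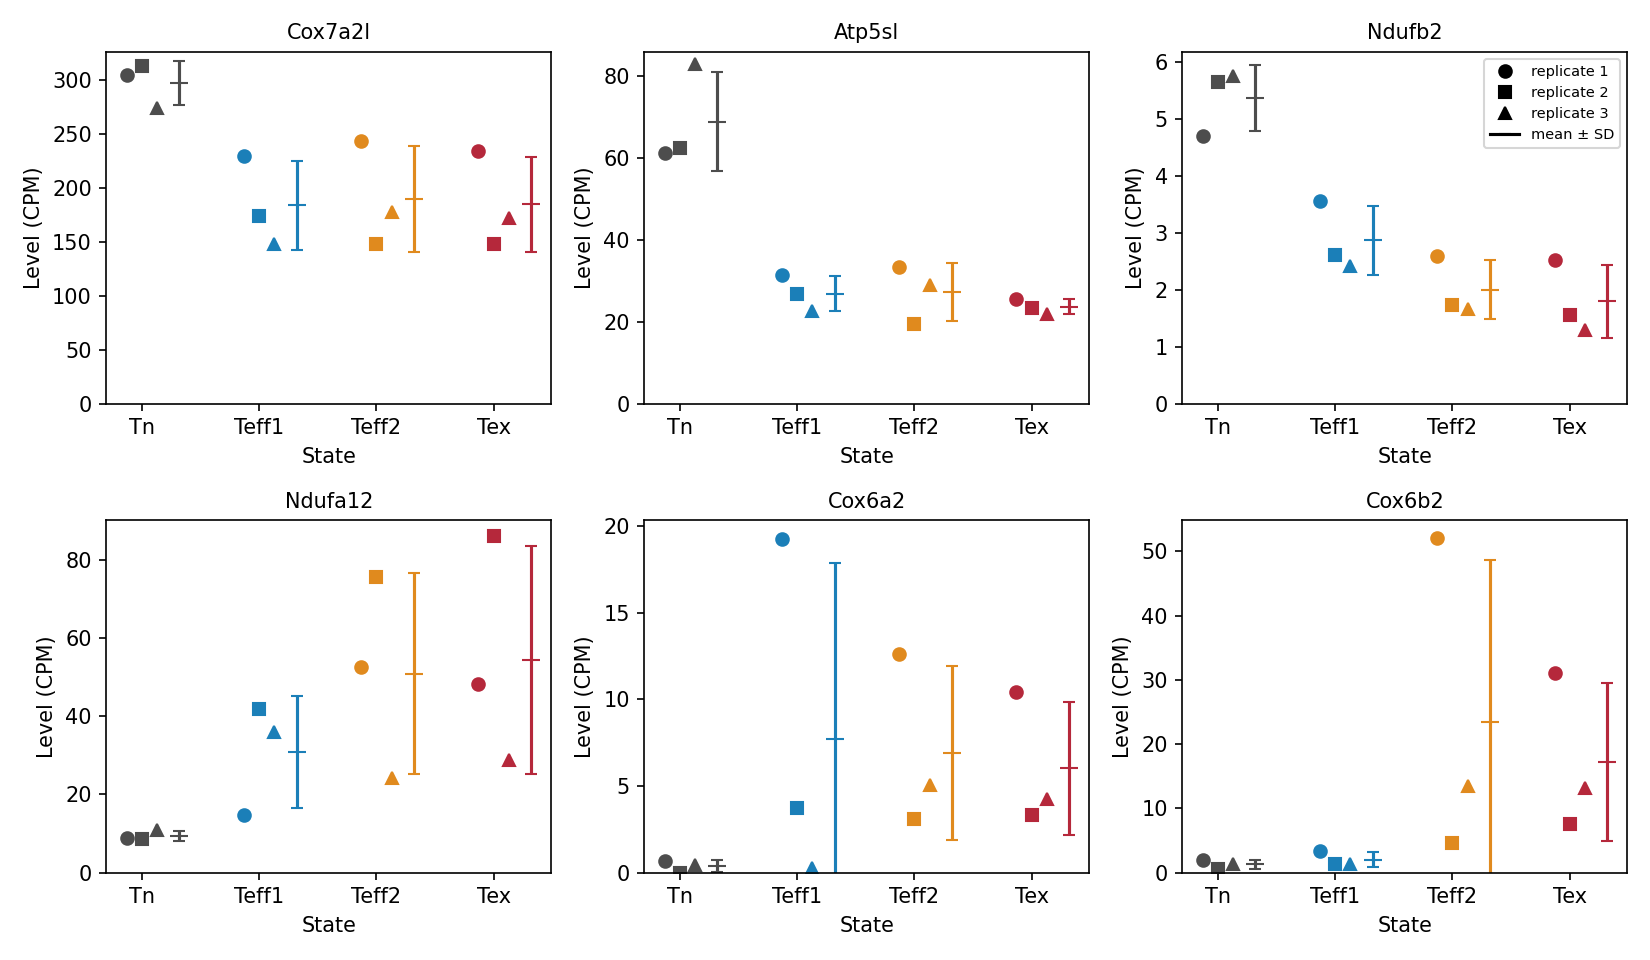
Level in CPM (linear axes from 0) of 6 members in each of the 12 libraries by state, with the mean and SD of 3 libraries beside the points. Cox7a2l, Atp5sl and Ndufb2 are lower in every activated library than in Tn, Ndufa12 is higher in every one, Cox6a2 overlaps Tn in Teff1 replicate 3 and Cox6b2 is high at day 5 only.

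Complex V is the ATP synthase. The mean summed level of its nuclear members was 2.08 times Tn in Teff1, 1.93 times in Teff2 and 2.07 times in Tex, beside 1.87, 1.84 and 2.06 times for the nuclear members of complex III, and differences between complexes were not tested. Of its 17 tested members by symbol 11 rose and 1 fell in Teff1, and 12 rose and 1 fell in each day 5 state. The 1 that fell was Atp5sl, which is placed here by its symbol and is an assembly factor of complex I. The shares of all genes in Teff1, Teff2 and Tex were 24.5%, 25.6% and 27.3% higher and 24.5%, 23.3% and 25.6% lower. Atp5b, the catalytic beta subunit, had 555, 718 and 642 CPM in Tn. It had 1336, 1807 and 2260 CPM in Teff1, 1091, 1821 and 1862 CPM in Teff2, and 1246, 1970 and 1949 CPM in Tex. All activated libraries exceeded Tn, with log2 fold changes of 1.496, 1.32 and 1.43 (SE 0.27 each, adjusted p = 0.000914, 0.00185 and 0.000992).

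Subunit c, whose ring turns in the membrane, is encoded by 3 nuclear genes that share the mature protein and differ in their import sequences. Atp5g1 had 41.3, 31.0 and 37.2 CPM in Tn, then 102, 77.2 and 146 CPM in Teff1 (log2 fold change 1.57, SE 0.24, adjusted p = 0.000341). Atp5g3 had 125, 122 and 117 CPM in Tn, then 174, 247 and 444 CPM in Teff1 (1.25, SE 0.34, adjusted p = 0.00921). Atp5g2 had 103, 135 and 120 CPM in Tn, then 190, 209 and 255 CPM in Teff1 (0.87, SE 0.28, adjusted p = 0.0219). None of the 3 overlapped Tn, and differences between the 3 genes were not tested. The Atp5g1 call held in each fit without 1 library. That of Atp5g2 was lost without any of Tn replicates 1 and 3 or Teff1 replicate 3 (adjusted p = 0.0578 to 0.0847), and at day 5 it was lost in Teff2 without any of 4 libraries (Tn replicates 1 and 3, Teff2 replicates 2 and 3, 0.0739 to 0.108) and in Tex without Tn replicate 1 or Tex replicate 3 (0.0603 and 0.068). That of Atp5g3 was lost in Teff2 without Teff2 replicate 2 (0.0715).

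Atp5sl fell in all 3 comparisons. It had 61.2, 62.5 and 82.8 CPM in Tn, 31.3, 26.7 and 22.7 CPM in Teff1, 33.5, 19.6 and 28.9 CPM in Teff2, and 25.6, 23.5 and 22.0 CPM in Tex, with no overlap. The log2 fold changes were -1.36, -1.33 and -1.54 (SE 0.22 each, adjusted p = 0.000446, 0.000484 and 0.000166), and the calls held in each fit without 1 library and with Tn replicates 1 and 3 left out. So the members that fell in all activated states were 1 structural subunit (Ndufb2), 1 gene described as a supercomplex factor (Cox7a2l) and 1 assembly factor (Atp5sl).

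**Figure D4:**
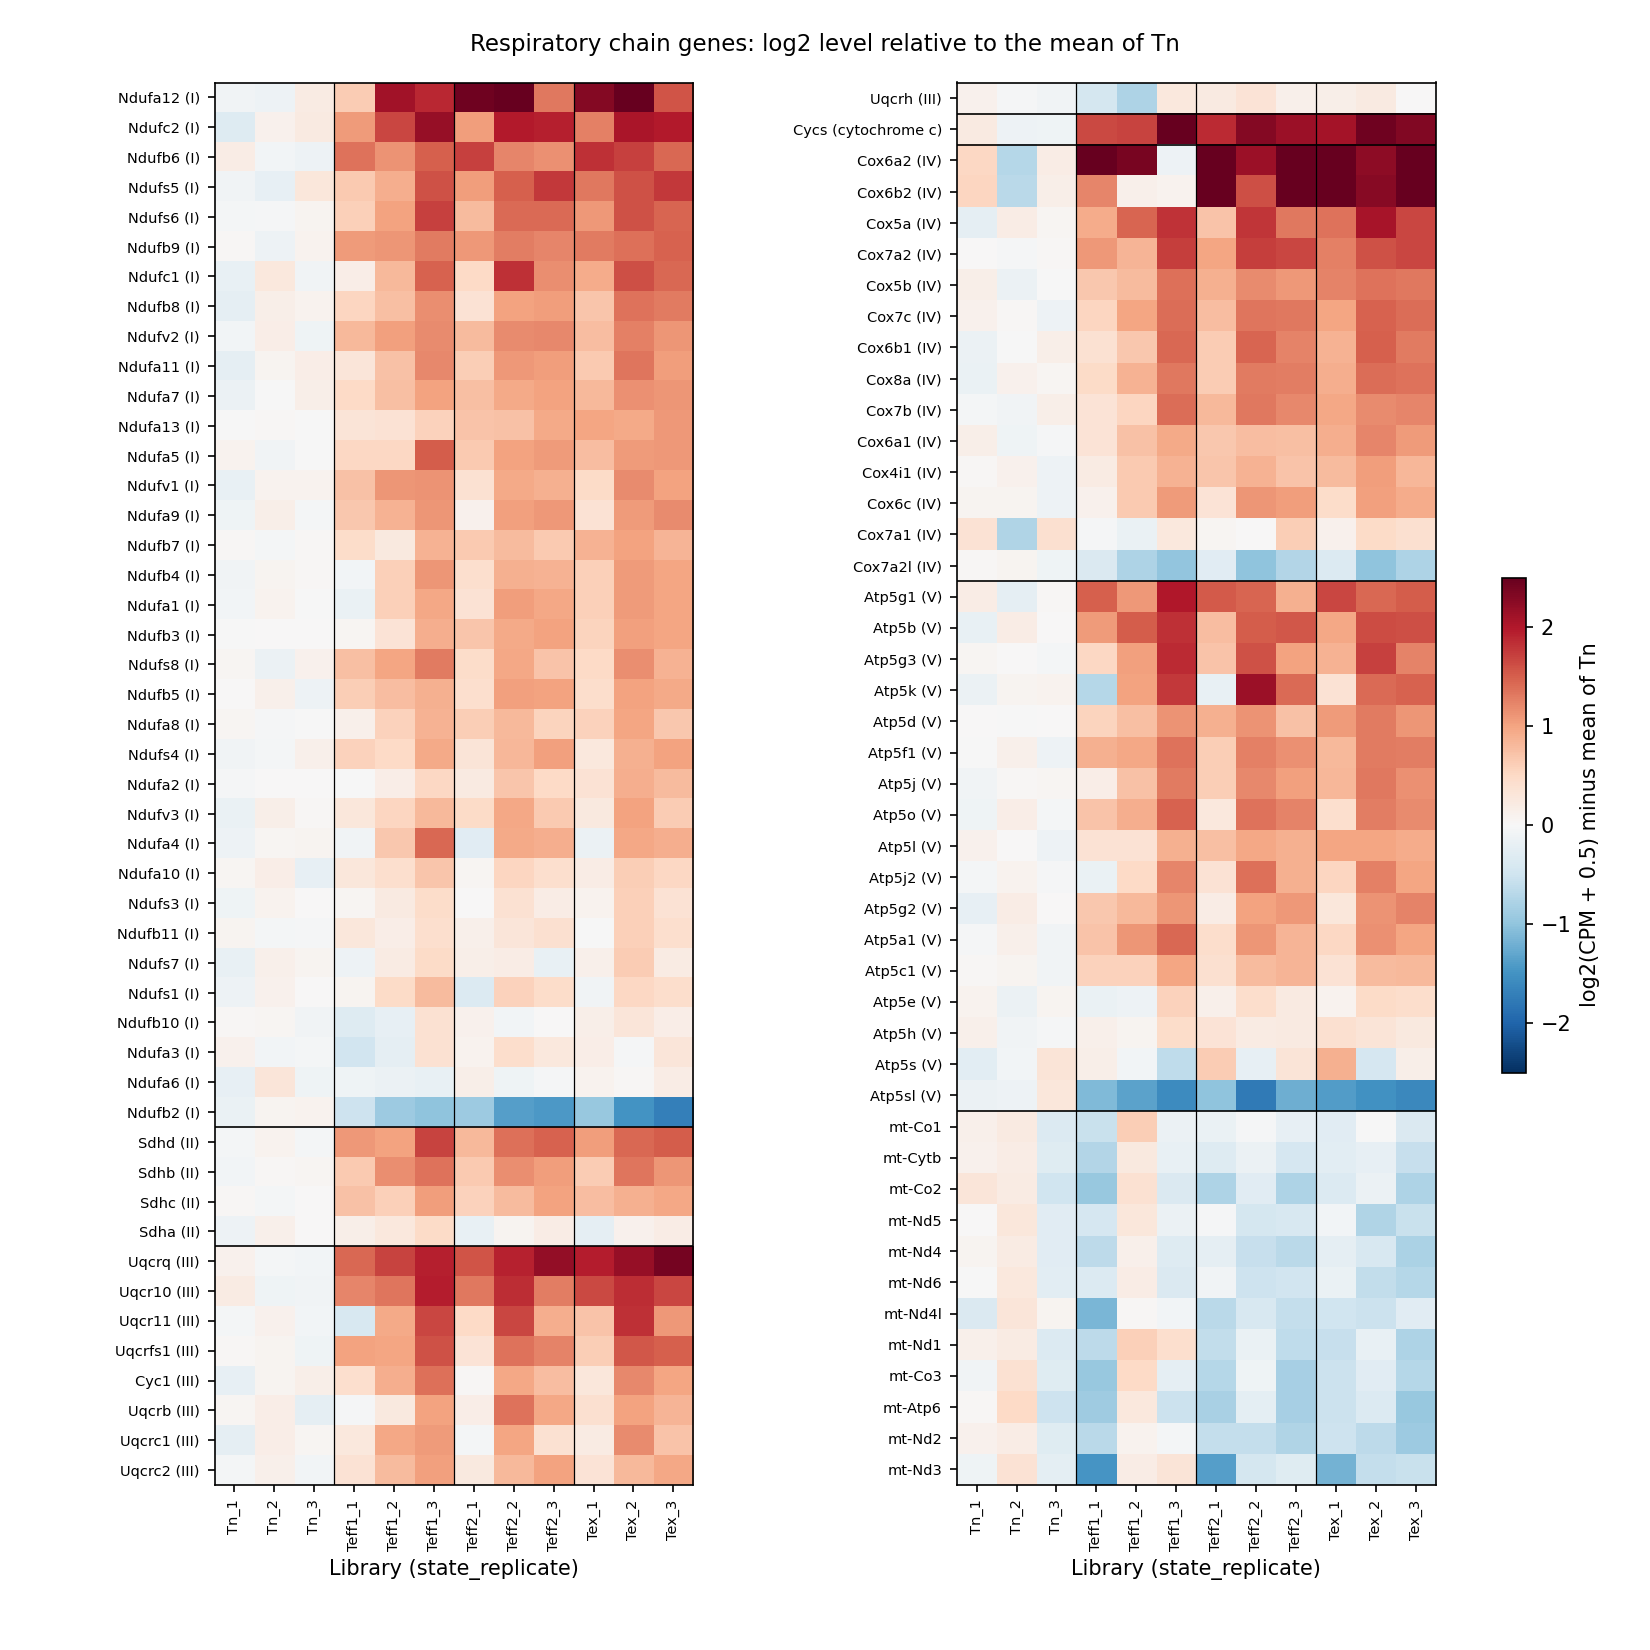
log2(CPM + 0.5) of the tested members, apart from 1 not reported here, minus the mean of the 3 Tn libraries, with 1 column per library and 1 row per member, ordered within each group by the change in Tex and marked with the complex in the symbol (red higher, blue lower, colors saturating at the ends of the scale). Most nuclear rows are red in all activated columns and paler in replicate 1, and the mitochondrial rows at the lower right are pale to blue.

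The nuclear members deviated together within states. Replicate 1 was lower than the mean of the other 2 libraries for 73 of 81 nuclear members in Teff1, 68 in Teff2 and 69 in Tex, with median log2 differences of -0.41, -0.42 and -0.42. Teff1 replicate 3 was higher for 74 of 81, with a median of 0.51. In Tn the medians for the 3 libraries were -0.06, 0.08 and 0.01. The mitochondrial mRNAs deviated differently: in Teff1 replicate 2 all 12 tested were higher (median 0.71), and in Teff1 replicate 1 all 12 were lower (median -0.78). Without replicate 1 of the 3 activated states the nuclear median in Teff2 against Tn was 1.08.

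The mitochondrial mRNAs showed little that passed the test. In Teff1 against Tn 0 of 12 tested were called by edgeR, by DESeq2 or by limma, with 0 at an unadjusted p under 0.05. By edgeR 48.9% of all genes were called there. The median log2 fold change was -0.18, and 10 of 12 lay below 0. Without Teff1 replicate 1 that median was 0.08. In Teff2 and Tex against Tn all 12 lay below 0, with medians of -0.52 and -0.50 against 0.00 for all genes. In each comparison 1 of 12 fell, where 23.3% (Teff2) and 25.6% (Tex) of all genes were called lower. The levels of 3 did not overlap and were lower in Teff2, and of 2 in Tex, against 29.6% and 31.3% of all genes. mt-Atp8 was not tested, since it had at most 0.805 CPM.

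The mRNA that fell was mt-Nd2, a membrane subunit of complex I. It had 1595, 1684 and 1198 CPM in Tn, 920, 1576 and 1420 CPM in Teff1, 982, 971 and 874 CPM in Teff2, and 1026, 941 and 784 CPM in Tex. Every day 5 library was below every Tn library, while Teff1 overlapped Tn. The log2 fold change was -0.19 in Teff1 (adjusted p = 0.47), -0.66 in Teff2 (SE 0.21, adjusted p = 0.0222) and -0.70 in Tex (SE 0.21, adjusted p = 0.0155). The Teff2 call was lost without any of Tn replicates 1 and 2 or Teff2 replicate 3 (adjusted p = 0.0605 to 0.1001), and the Tex call without Tn replicate 2 or Tex replicate 3 (0.0572 and 0.0596). mt-Nd3 had the largest fitted change in Tex, -0.84, from 8.24 ± 1.97 to 4.61 ± 1.14 CPM, and was not called (adjusted p = 0.158). mt-Co1 had 8626 ± 1727 CPM in Tn and 7344 ± 937 CPM in Tex (-0.23, adjusted p = 0.49), and mt-Cytb, the mitochondrial subunit of complex III, 2976 ± 505 and 2330 ± 306 CPM (-0.35, adjusted p = 0.226).

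Levels of the mitochondrial mRNAs differed far more between genes than between states. Per kb of gene length in Tn, mt-Co1 had 5583 ± 1118 CPM, mt-Cytb 2601 ± 441 and mt-Nd1 2102 ± 406. mt-Nd2 followed with 1438 ± 250, mt-Nd5 with 1002 ± 200, mt-Nd4 with 920 ± 158 and mt-Nd6, the 1 mRNA of the light strand, with 515 ± 94.8. The SDs of neighbors in this order overlapped for mt-Cytb and mt-Nd1, for mt-Nd2 and mt-Nd5 and for mt-Nd5 and mt-Nd4. Within each Tn library the first gene of each of these pairs was nevertheless the higher. The other 6 mRNAs were lower still: mt-Co2 had 173 ± 47.5, mt-Atp6 85.5 ± 29.7, mt-Co3 70.5 ± 17.6, mt-Nd3 23.7 ± 5.66, mt-Nd4l 20.4 ± 4.94 and mt-Atp8 2.19 ± 1.52 CPM per kb. The SDs overlapped for mt-Atp6 and mt-Co3 and for mt-Nd3 and mt-Nd4l. Within each Tn library mt-Atp6 was above mt-Co3, while mt-Nd3 was below mt-Nd4l in Tn replicate 3. These 6 are neighbors on the mitochondrial genome, between mt-Co1 and mt-Nd4. In Teff1 the mean of mt-Nd1, 2413, lay above that of mt-Cytb, 2283 CPM per kb, within their SDs. The first 4 genes kept their order in the day 5 means, and the split between 7 high and 6 low mRNAs held in the means of all 4 states. How reads that also match copies of mitochondrial DNA in the nuclear genome were counted is not given in the sources used here, so levels compared between mitochondrial genes are uncertain, and this was not tested.

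**Figure D5:**
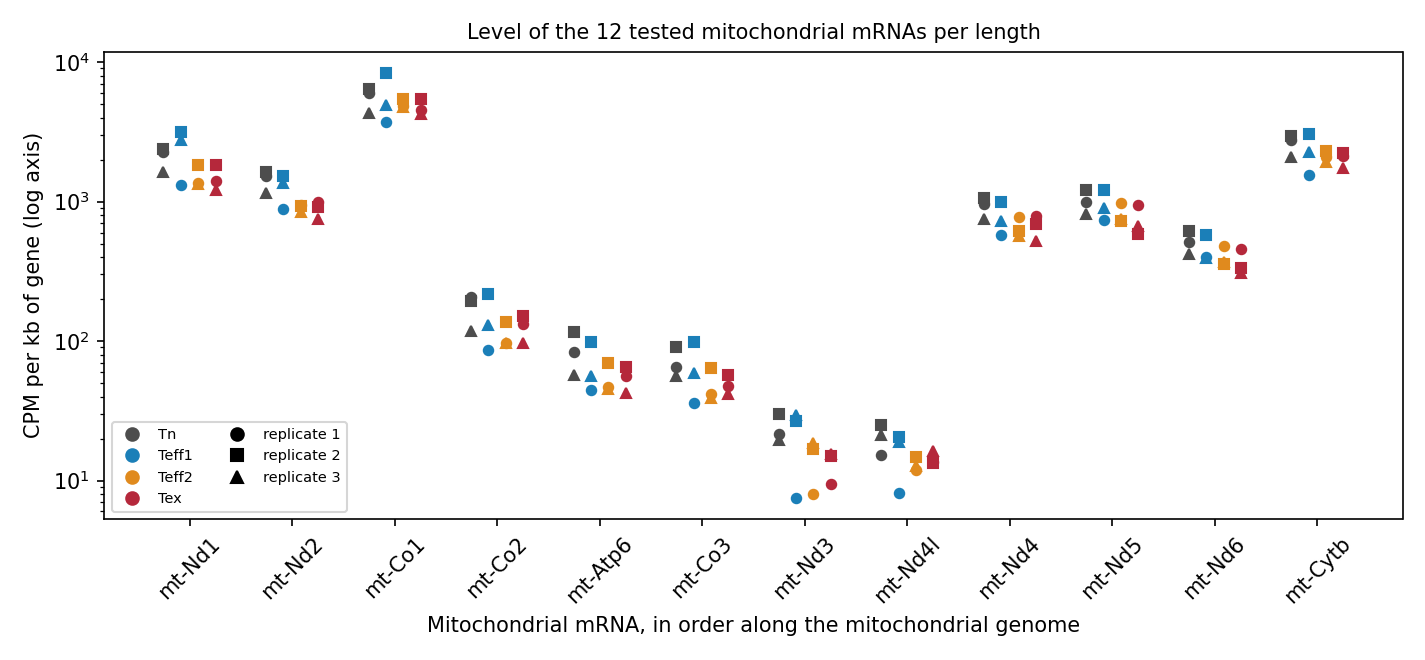
Level of the 12 tested mitochondrial mRNAs in CPM per kb of gene (log axis), in their order along the mitochondrial genome, with 1 point per library, colored by state and shaped by replicate. The run from mt-Co2 to mt-Nd4l lies below the genes on either side in all 12 libraries, and within a gene the states mostly overlap.

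From day 2 to day 5 and between the day 5 gates few members differed. In Teff2 against Teff1, 0 of the 81 nuclear and 0 of the 12 mitochondrial members were called by edgeR, where 0.67% of all genes were called (0.558% higher, 0.112% lower). DESeq2 called 1 nuclear member higher and limma 0, and an unadjusted p under 0.05 was reached by 3 nuclear and 2 mitochondrial members. The CPM of 3 nuclear members did not overlap and were higher, against 8.39% of all genes, and of 0 lower, against 6.19%. The medians were 0.05 and -0.29, and all 12 mitochondrial mRNAs lay below 0. Without Teff1 replicate 2, the library highest in mitochondrial mRNAs, their median was -0.02. In Tex against Teff2, 0 members were called by any of the 3 tools and 0 reached an unadjusted p under 0.05, where 1 gene (0.00698% of all) was called. The nuclear median was 0.10 with 64 of 81 members above 0, and the mitochondrial median -0.04. The CPM of 6 nuclear members did not overlap and were higher in Tex, against 2.46% of all genes, and of 0 lower, against 2.35%.

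The libraries of the 2 day 5 gates with the same number deviated together (r = 0.85, 0.78 and 0.75 across genes, against at most 0.12 for other pairs), so a fit within pairs was made for this comparison. It called 1 member where 2.16% of all genes were called (1.26% higher, 0.907% lower). Cox5a was higher in Tex in 3 of 3 pairs, at 61.8, 101 and 77.1 CPM against 39.4, 83.0 and 60.3 CPM (log2 fold change 0.42, SE 0.089, adjusted p = 0.0406). Next were Cox6a1, at 353, 438 and 394 CPM against 299.6, 320 and 316 CPM (0.33, SE 0.083, adjusted p = 0.0774), and Ndufb8 (0.31, SE 0.082, adjusted p = 0.0926), each also higher in 3 of 3 pairs. The nuclear median within pairs was 0.10 and the mitochondrial -0.05.

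Genes that build and supply the chain were read against the shares of all genes called higher, 24.5% in Teff1, 25.6% in Teff2 and 27.3% in Tex, and lower, 24.5%, 23.3% and 25.6%. Of 45 tested assembly factors, 16 rose and 2 fell in Teff1, 13 rose and 2 fell in Teff2, and 14 rose and 3 fell in Tex, with medians of 0.36, 0.25 and 0.31. At day 5 the share that rose was near that of all genes. Sco1, which delivers copper to complex IV, rose from 12.8 ± 2.53 to 57.3 ± 30.5 CPM in Teff1 (log2 fold change 2.17, SE 0.54, adjusted p = 0.00603). Ndufaf2, an assembly factor of complex I, rose from 4.52 ± 0.204 to 16.9 ± 7.07 CPM (1.90, SE 0.28, adjusted p = 0.000292) and Cox20, a chaperone of mt-Co2's product, fell from 6.45 ± 3.12 to 1.56 ± 1.11 CPM (-2.04, SE 0.68, adjusted p = 0.0257). Of 13 genes of coenzyme Q synthesis, 7 rose and 2 fell in Teff1 and 5 rose and 1 fell in each day 5 state, with medians of 0.65, 0.37 and 0.51. Coq7, a hydroxylase of that pathway, rose from 5.58 ± 0.597 to 26.4 ± 9.77 CPM (2.24, adjusted p = 0.00277), and Coq8a, an atypical kinase of it, fell from 21.5 ± 2.73 to 4.93 ± 1.61 CPM (-2.12, adjusted p = 0.00227).

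Genes that act on mitochondrial DNA and RNA are read against the same shares of all genes, 24.5%, 25.6% and 27.3% higher. Of 17 genes of mitochondrial DNA replication and transcription, 7 rose and 1 fell in Teff1, 4 rose and 3 fell in Teff2, and 4 rose and 2 fell in Tex. The share that rose at day 5 was not above that of all genes. Mgme1, a nuclease of mitochondrial DNA replication, rose from 9.19 ± 2.55 to 35.6 ± 2.96 CPM in Teff1 (log2 fold change 1.95, adjusted p = 0.00037). Polg2, the accessory subunit of the mitochondrial DNA polymerase, fell from 33.1 ± 8.33 to 14.3 ± 0.224 CPM in Teff1 and 9.80 ± 0.981 CPM in Tex (-1.21 and -1.75, adjusted p = 0.00143 and 0.000129). Of 18 genes of mitochondrial RNA processing, stability and decay, 9 rose in Teff1 and 7 in each day 5 state, and none fell. Rexo2, a mitochondrial oligoribonuclease, rose from 67.5 ± 6.68 to 191 ± 30.8 CPM (1.503, adjusted p = 6.46e-05), and Supv3l1, the helicase of the mitochondrial RNA degradosome, from 22.0 ± 2.24 to 45.4 ± 6.05 CPM (1.05, adjusted p = 0.00165). Of 10 translation factors 6 rose in Teff1 and 5 in each day 5 state, with Gfm1, an elongation factor, at 34.8 ± 2.15 and 92.1 ± 26.8 CPM in Tn and Teff1 (1.41, adjusted p = 0.00127).

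Among 9 tested regulators of mitochondrial biogenesis, 2 rose and 1 fell in Teff1 and 2 rose and 2 fell in each day 5 state, shares no higher than the 24.5%, 25.6% and 27.3% of all genes that rose. Myc, a transcription factor of growth, had 122, 149 and 123 CPM in Tn, then 403, 505 and 453 CPM in Teff1 (log2 fold change 1.79, SE 0.23, adjusted p = 0.000119). Ppargc1b, a coactivator of nuclear respiratory genes, had 28.0, 24.0 and 17.6 CPM in Tn, 8.98, 13.9 and 11.6 CPM in Teff1, 7.85, 7.41 and 4.46 CPM in Teff2, and 5.65, 6.10 and 4.16 CPM in Tex. Its levels fell without overlap, by 1.01, 1.82 and 2.13 on the log2 scale (adjusted p = 0.0113, 0.00043 and 0.000142). Its relative Ppargc1a was at most 0.967 CPM, was not tested and had 0 counts in all Tex libraries. Nrf1 and Gabpa, transcription factors that bind promoters of respiratory genes, were not called in Teff1 (0.44 and 0.41, adjusted p = 0.0944 and 0.0821), nor were Pprc1 (0.46, adjusted p = 0.12) and Esrra (-0.45, adjusted p = 0.216). Tfam, the packaging protein of mitochondrial DNA, rose at day 2 alone among these comparisons, from 60.0 ± 7.97 to 86.0 ± 5.88 CPM (0.52, adjusted p = 0.0451). Polrmt, the mitochondrial RNA polymerase, was 61.3 ± 3.87 CPM in Tn and 51.1 ± 2.21 CPM in Teff1 (-0.26, adjusted p = 0.195), and fell in Teff2 to 41.4 ± 4.77 CPM (-0.57, adjusted p = 0.0125). No member of any of these lists was called in Teff2 against Teff1 or in Tex against Teff2.

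Because the nuclear members rose together, the sequence before their start sites was read. RefSeq promoter windows of 250 bases before to 50 bases after the start (assembly GRCm38.p6) were at hand for 70 of the 87 nuclear members, in 76 windows. On both strands 3 motifs were searched: NRF1 (10 letters in 2 forms, both shown in capitals in the stretches printed here), GABPA and other ETS factors (CCGGAAGT) and YY1 (AAGATGGC), none of which overlaps another in its letters. NRF1 letters stood in 13.2% of the member windows and 2.27% of all 32851 windows of that length. YY1 letters stood in 15.8% and 2.75%, and the ETS letters in 6.58% and 3.89%. The 32851 windows were not matched to the members in base composition or in expression. NRF1 was found in 10 members, YY1 in 11 and ETS in 5, with 0 members holding more than 1 kind and 44 holding none. Of the 42 members with a window that rose in Teff1, 7 held NRF1 letters (16.7%), against 3 of the other 28 (10.7%). For YY1 the shares were 14.3% and 17.9%, and for the ETS letters 1 of 42 (2.38%) and 4 of 28 (14.3%). These differences were not tested. A match is a description of letters and not a bound site.

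The NRF1 matches before the start site are shown because they are the members whose promoters hold the longest motif searched, written 5′ to 3′ on the gene's strand with the matched letters in capitals. All but Ndufb4 and Atp5k are members that rose in Teff1, and Ndufb4 rose at day 5.
Atp5c1: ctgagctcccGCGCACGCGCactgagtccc
Atp5g2: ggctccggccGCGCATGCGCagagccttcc
Atp5k: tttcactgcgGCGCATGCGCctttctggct
Cox6a1: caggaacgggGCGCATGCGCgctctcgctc
Ndufa11: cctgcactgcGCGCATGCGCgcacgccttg
Ndufb4: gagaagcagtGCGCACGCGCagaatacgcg
Sdhd: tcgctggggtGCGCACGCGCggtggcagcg

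These stretches lie at chr2:10080430-10080459 (Atp5c1, - strand), chr15:102671070-102671099 (Atp5g2, -), chr5:108434430-108434459 (Atp5k, -), chr5:115349101-115349130 (Cox6a1, -), chr17:56717692-56717721 (Ndufa11, +), chr16:37654540-37654569 (Ndufb4, -) and chr9:50603909-50603938 (Sdhd, -). Their first matched base stands 17, 42, 50, 162, 60, 191 and 79 bases before the start. The NRF1 matches of Atp5o, Ndufa6 and Uqcrc1 stand after it.

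YY1 letters stood mostly after the start site, in 9 of 12 matches. The 1 site of Atp5sl is counted in both of its windows, after the start in 1 and before it in the other. Examples are shown from 2 members that rose in all activated states, Ndufb8 and Ndufs6, from Atp5sl, which fell, and from Ndufs7, which was not called, since the same letters occur in all of them.
Ndufb8: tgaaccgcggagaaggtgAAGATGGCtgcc
Ndufs6: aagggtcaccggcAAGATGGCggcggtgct
Atp5sl: cgttacctggcAAGATGGCggcgcccagag
Ndufs7: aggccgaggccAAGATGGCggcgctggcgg

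They lie at chr19:44555393-44555422 (Ndufb8, - strand), chr13:73328433-73328462 (Ndufs6, -), chr7:25619429-25619458 (Atp5sl, +) and chr10:80249462-80249491 (Ndufs7, +). The matched letters start 39, 34 and 25 bases after the start in Ndufb8, Ndufs6 and Ndufs7, and 27 bases after it in 1 of the 2 windows of Atp5sl.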

How the data were processed

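Bulk RNA-seq was read from 2 matrices. The authors deposited raw counts per gene symbol, whole numbers for 34573 symbols and 12 libraries. They also deposited a matrix of normalized values on a log2 scale for 21574 genes, whose transformation is not given in the sources used here and which served as an alternative only. Per the submitters' processing notes, mm10, BWA, Juicer, HISAT2, HTSeq and DESeq2 were used, without versions. Strandedness and the handling of shared reads are not given in the sources used here. The 4 Hi-C samples were not analysed here.

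Counts were tested with the edgeR 4.0.16 quasi-likelihood F test (R 4.3.3) on all 12 libraries, with state as the term, TMM factors and the filter by expression (14332 genes kept). Adjusted p-values are Benjamini-Hochberg over all genes tested, for each of 5 comparisons, and called means under 0.05. SE is the absolute log2 fold change over the square root of F. CPM use TMM-scaled library sizes, except marker sums, which use plain totals. The script was tested on simulated data. Alternatives were DESeq2 1.42.0, limma 3.58.1, other scalings, no filter, a replicate block and fits with libraries left out. Apart from the replicate block, replicate numbers were used as pairs for the 2 day 5 gates only, given the correlation of same-numbered libraries.

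Members and lists were chosen with earlier results of these data known. Named members are the 13 mitochondrial mRNAs, Cycs, Cyc1, the 4 Sdh genes, the subunit c genes, tissue isoforms with paralogs, the core subunits of complex I, and per comparison and complex up to 2 called members with the largest rise and fall and at least 10 CPM, with a like rule at 2 CPM for pathway lists. Other names were chosen after their values were seen. RefSeq annotation and promoter windows of GRCm38.p6 were matched by symbol, 4 members by an older one. Values of 1 member of complex I by name are not reported here; it remains in counts, sums and medians.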

Additional observations from a re-analysis of the deposited data

How the results depend on the processing

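No call of a member named by rule changed direction in any alternative run. Nuclear members called in Teff1 against Tn ranged from 33 to 61 higher and 1 to 3 lower when 1 library was left out, from 38 to 61 higher in Teff2 and from 49 to 64 in Tex, and from 0 to 1 higher in Teff2 against Teff1. Mitochondrial members called lower ranged from 0 to 1 in Teff2 and from 0 to 3 in Tex. The shares of all genes called in these fits are not given here. The mitochondrial median in Teff1 against Tn ranged from -0.40 to 0.08 and in Tex against Teff2 from -0.09 to 0.05, and the nuclear median from -0.04 to 0.27 in Teff2 against Teff1 and from -0.03 to 0.21 in Tex against Teff2, so these medians changed sign. With Tn replicates 1 and 3 left out, 8 nuclear members were higher and 1 lower in Teff1, 15 and 1 in Teff2, and 23 higher in Tex, and 0 mitochondrial members were lower in Teff2; that fit has fewer libraries. Without replicate 1 of the activated states, 2 and 3 mitochondrial members were lower in Teff2 and Tex, and the nuclear median in Teff2 was 1.08. limma on the deposited log2 matrix gave nuclear medians of 0.57 and 0.64 in Teff2 and Tex. Without a filter 1 nuclear member was lower in Teff1 and 1 higher in Teff2 against Teff1, as was 1 with DESeq2. Upper-quartile scaling moved the median of all genes from -0.06 to -0.20 in Teff1 against Tn and called 46 nuclear members higher there and 2 mitochondrial members lower in Tex. The cause of these differences was not tested.

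The replicate block called 1 nuclear member higher in Teff2 against Teff1, on all 12 or on 6 libraries, and 1 in Tex against Teff2 on 6. It called 4 (all 12) or 3 (6 libraries) mitochondrial members lower in Teff2 against Tn, and 4 or 5 in Tex against Tn. The labels do not say whether same-numbered libraries belong together. Outside the day 5 gates their correlations were 0.136, 0.135 and 0.00485 for Teff1 and Tn and 0.507, 0.243 and 0.0291 for Teff2 and Teff1. Teff2 replicate 2 and Teff1 replicate 3, which differ in number, reached 0.505. Depth limits the isoforms near 0, since 3 counts correspond to 0.142 to 0.205 CPM.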
